A study of Mus musculus with 4 samples.

Results

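The MHC class I presentation machinery was followed here through 9 genes, the heavy chains H2-K1 and H2-D1, the light chain B2m, the peptide transporter subunits Tap1 and Tap2, the loading chaperone Tapbp, the transactivator Nlrc5 and the inducible proteasome subunits Psmb8 and Psmb9. They were chosen by gene symbol, with no measured value in the rule but with earlier results of these data known. All 9 were found among the 32285 genes counted. All 9 also passed the filter on low counts in every comparison given here. Their transcripts were measured in lymph node stromal cells that were assigned by marker genes to 7 classes, in 4 single-cell libraries from control and Notch2-deficient mice.

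Class I molecules carry peptides from inside the cell to its surface, where CD8 T cells read them. The proteasome cuts proteins into peptides, the Tap1 and Tap2 heterodimer pumps these into the endoplasmic reticulum, Tapbp (tapasin) bridges transporter and empty heavy chain, and B2m pairs with the heavy chain. Interferon-gamma is a known inducer of the whole pathway: Psmb8 and Psmb9 then replace constitutive catalytic subunits of the proteasome, and Nlrc5 drives class I promoters through a composite element that includes a Y box. Fibroblastic reticular cells form the scaffold of the lymph node on which T cells move.

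Of the 9 genes, 7 lie in the major histocompatibility complex on chromosome 17 of mm10 and all are protein coding. Psmb9 (17, 34181987 to 34187764, minus strand), Tap1 (34187553 to 34197225), Psmb8 (34197721 to 34201454) and Tap2 (34203527 to 34216321) sit together within 34335 bases. Tapbp (33915899 to 33929292) and H2-K1 (33996017 to 34000347, minus strand) lie to one side of that block and H2-D1 (35262730 to 35267499) to the other. H2-K1 and H2-D1 together span 1271483 bases. B2m lies on chromosome 2 (122147686 to 122153083) and Nlrc5 on chromosome 8 (94434356 to 94527272). Psmb9 and Tap1 lie on opposite strands, and in these spans their start sites are 211 bases apart and their first bases overlap. By the RefSeq starts used below they do not overlap.

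RefSeq promoter windows (GRCm38.p6) were matched for 7 of the 9 members, with no entry for Tap2 and Nlrc5. RefSeq starts can differ from the gene spans given above. The windows of H2-D1, Tapbp, Psmb8 and Psmb9 lie inside those spans. The stretches upstream of H2-K1 and B2m are shown because heavy and light chain, on different chromosomes, carry the same pair of motifs in the same order. Capitals mark matches to a kappaB motif (GGG, any 2 bases, TT, any 1 base, CC), a Y box (CCAAT) and an interferon-stimulated response element (GAAA, any 2 bases, GAAA), on either strand. Each sequence ends at the base before the RefSeq start.
H2-K1, chr17:34000348-34000527, minus strand: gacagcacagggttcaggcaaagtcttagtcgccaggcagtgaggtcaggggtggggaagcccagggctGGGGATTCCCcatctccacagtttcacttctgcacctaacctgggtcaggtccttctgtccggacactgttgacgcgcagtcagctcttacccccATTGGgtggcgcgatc
B2m, chr2:122147507-122147686, plus strand: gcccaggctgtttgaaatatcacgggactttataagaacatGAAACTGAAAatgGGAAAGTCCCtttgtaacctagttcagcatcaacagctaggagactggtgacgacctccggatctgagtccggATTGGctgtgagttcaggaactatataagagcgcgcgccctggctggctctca

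Over the 250 bases upstream of each start, the kappaB motif was found in H2-K1, H2-D1 and B2m and in 4.11% of the 32851 windows of the same length in the table. A Y box was found in 6 of the 7 members searched, all but Psmb8, and in 33.8% of all windows. The windows of Tap1 and Psmb9 overlap on opposite strands, and their Y box is one and the same site, counted for each gene. An exact match to the letters of the response element was found in B2m alone among the members, and in 2.98% of all windows. Variants of the element were not searched, so a window without a match may still hold one. A gamma-activated site (TTCNNNGAA) was found in Psmb8 alone among the members, and in 7.02% of all windows. It lies 97 to 89 bases before the RefSeq start of Psmb8, inside the gene span given above. These are matches of letters, the searched motifs do not overlap one another in these windows, and nothing was measured at these sites.

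**Figure D1:**
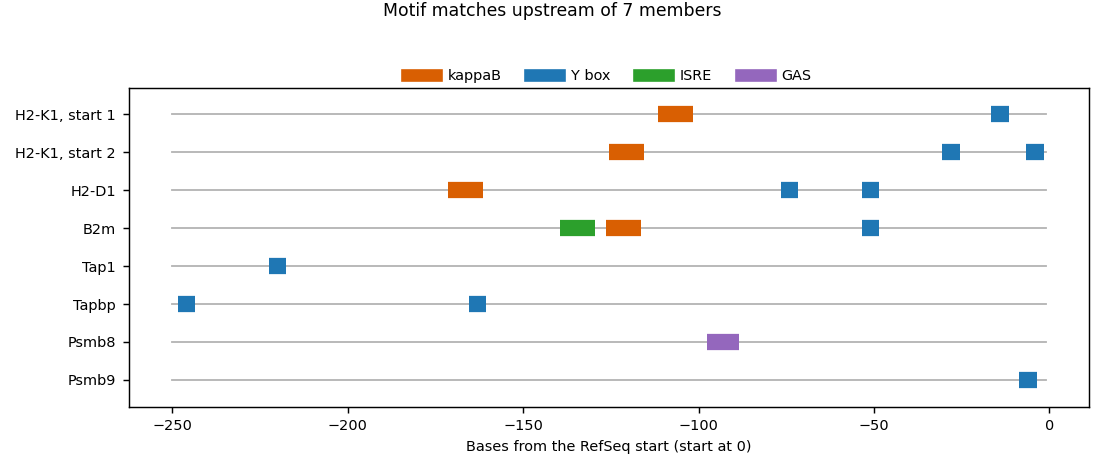
Motif matches in the 250 bases upstream of the RefSeq starts of 7 members (H2-K1 has 2 starts), with the distance from the start in bases on the x axis and 1 line per start. The kappaB blocks sit upstream of the Y boxes in H2-K1, H2-D1 and B2m, and the other 4 genes have no kappaB match.

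Each library pooled the axillary, brachial and inguinal nodes of several female C57BL/6 mice aged 12 weeks, and live cells negative for CD45 and CD31 were sorted. In batch 1, control 1 carried Ccl19-Cre with the R26R-EYFP reporter, and Notch2 cKO 1 carried Ccl19-Cre, Notch2 fl/fl and the reporter. They were not littermates, and 6 mice went into each library. In batch 2, control 2 was Notch2 fl/fl without Cre and Notch2 cKO 2 was Ccl19-Cre with Notch2 fl/fl, from littermates, with 3 mice per library. Deletion therefore depends on activity of the Ccl19 promoter, the control genotype differs between batches, and with 2 pools per group the spread between mice was not measured. Values below are always given in the order control 1, Notch2 cKO 1, control 2, Notch2 cKO 2.

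The deposited matrices held 8491 to 18482 barcodes per library with medians of 2040 and 2834 unique molecular identifiers (UMIs) per barcode in batch 1 and 5787 and 7243 in batch 2. After filtering, 7817 to 17014 cells per library remained, of which 80.3% to 95.3% were fibroblast-like. Notch2 itself was at 39.3, 19.1, 58.0 and 38.9 counts-per-million units (CPM) in fibroblast-like cells, lower in the Notch2 cKO library of each batch. The T-zone gate held 3483 to 4563 cells per library and the Cxcl9-high gate 323 to 565. T-zone reticular-like cells, gated on Ccl21a, had 15309 to 19400.5 CPM of it, and adventitial-like cells had 626 to 1362 CPM of Cd34 against 2.72 to 3.95 CPM in T-zone cells. Pecam1 reached at most 17.5 CPM and Epcam at most 0.326 CPM in fibroblast-like cells. Cd34, Pecam1 and Epcam are gate markers too, so these levels follow from the gates and are no independent check. Pairs of libraries shared 21 to 57 cell barcodes, at most 0.546% of the smaller library. The gates used no class I gene.

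In all fibroblast-like cells together, B2m was the most abundant member, at 3215, 4777, 2772 and 1787 CPM. The heavy chain H2-K1 followed at 2192, 2125, 1377 and 1735 CPM, and H2-D1 at 2004, 1678, 1312 and 1307 CPM. Counts of 3′ UMIs are not divided by transcript length, so levels of different genes are set side by side only as counts. The heavy chains were lower in both batch 2 libraries than in both batch 1 libraries. The same held for B2m and, by the values below, for Tap1, Tap2 and Tapbp. H2-K1 and H2-D1 are close paralogs, and reads that fit both cannot be assigned to one of them.

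The loading and processing genes were counted at much lower levels. Psmb8 was at 272, 187, 146 and 236 CPM, Psmb9 at 139, 94.3, 87.3 and 101 CPM, and Tapbp at 177, 241, 138 and 135 CPM. Tap1 was at 87.1, 90.9, 49.1 and 71.6 CPM and Tap2 at 126, 149, 78.8 and 73.3 CPM. Nlrc5 was the least abundant, at 14.3, 17.6, 32.1 and 39.8 CPM, and it was the member with both batch 2 libraries above both batch 1 libraries.

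Among the 7 classes, 8 of the 9 members were highest in the Cxcl9-high reticular-like gate, fibroblast-like cells in which at least 2000 CPM came from Cxcl9, a T cell attracting chemokine and a classic interferon-gamma target. Tap1 showed the widest gap. In Cxcl9-high cells Tap1 was at 218, 221, 135 and 215 CPM, and in T-zone reticular-like cells at 88.0, 88.6, 53.6 and 74.9 CPM. Every Cxcl9-high library lay above every T-zone library. The ratio within a library was between 2.47 and 2.88, and the fitted log2 difference was 1.38 ± 0.11 (SE; edgeR quasi-likelihood test with the library as a block, Benjamini-Hochberg adjusted p = 2.57e-10, n = 4 libraries).

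Psmb9 was at 241, 183, 189 and 232 CPM in Cxcl9-high cells and at 134, 92.2, 93.9 and 107 CPM in T-zone cells. Again the libraries of the 2 classes did not overlap, and the log2 difference was 1.00 ± 0.11 (edgeR, adjusted p = 1.67e-07). Psmb8 was at 472, 315, 290.0 and 446 CPM against 286, 189, 170 and 259 CPM, with no overlap and a log2 difference of 0.76 ± 0.11 (edgeR, adjusted p = 2.61e-05). Within a library the ratio for Psmb8 was between 1.65 and 1.72.

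Nlrc5, the transactivator of class I genes, was at 26.6, 40.7, 70.9 and 106 CPM in Cxcl9-high cells and at 14.7, 17.6, 30.0 and 37.5 CPM in T-zone cells. The libraries overlapped across batches because Nlrc5 was lower throughout batch 1, but each library's own ratio was between 1.80 and 2.83. The log2 difference was 1.25 ± 0.10 (edgeR, adjusted p = 1.28e-09). Tap2, the partner of Tap1, was at 207, 206, 128 and 119 CPM against 131, 148, 85.2 and 77.4 CPM, a log2 difference of 0.59 ± 0.11 (edgeR, adjusted p = 9.14e-04). Tapbp was at 214, 329, 201 and 205 CPM against 148, 210, 114 and 124 CPM, a log2 difference of 0.69 ± 0.12 (edgeR, adjusted p = 4.78e-04). In batch 1 alone the differences of Tap2 and Tapbp were of similar size, 0.59 and 0.61, but did not pass (edgeR, adjusted p = 0.148 and 0.0870).

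The chains of the class I molecule itself differed less. H2-K1 was at 2836, 2520, 1985 and 2423 CPM in Cxcl9-high cells and at 2224, 2081, 1562 and 1901 CPM in T-zone cells. H2-D1 was at 2479, 1996, 1792 and 1661 CPM against 1998, 1629, 1437 and 1404 CPM. B2m was at 4007, 5423, 4037 and 2294 CPM against 3273, 4841, 3197 and 1900.1 CPM. All 3 were higher in Cxcl9-high cells in 4 of 4 libraries, with ratios between 1.12 and 1.28, yet the log2 differences of 0.33, 0.29 and 0.27 did not pass (edgeR, adjusted p = 0.113, 0.285 and 0.271). For H2-K1 the call changed with the tool: DESeq2 gave 0.33 with an adjusted p of 0.00834, and edgeR with library-size scaling gave 0.33 with an adjusted p of 0.0317.

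In total 6 of the 9 members were called higher in Cxcl9-high than in T-zone cells and 0 lower, against 3.5% of the 13925 genes tested called higher and 4.9% called in either direction. The median log2 difference was 0.69 over the members and -0.02 over all genes tested. All 9 members were higher in each of the 4 libraries. Cxcl9 defined the gate, so these cells were not chosen independently of interferon-induced transcription. Median depth was 2737, 3417, 7964 and 11329 UMIs against 2350, 3279, 8122 and 10314 in T-zone cells, higher in 3 of the 4 libraries.

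**Figure D2:**
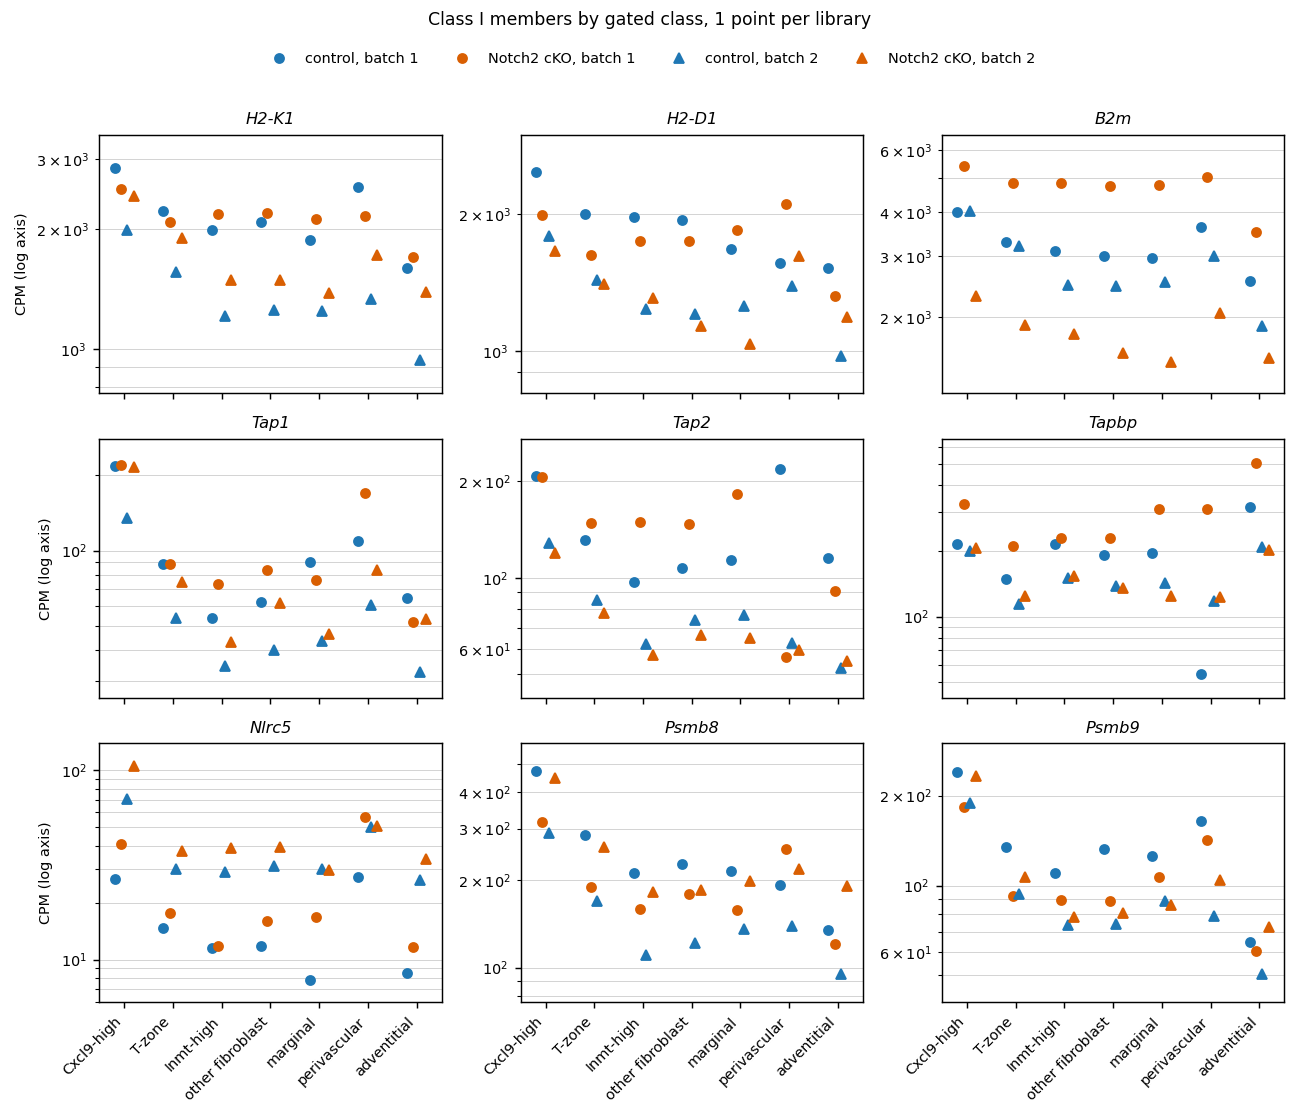
CPM of each member (log axis, own range per panel) in the 7 gated classes, with 1 point per library, colour for genotype and shape for batch. Tap1, Psmb8 and Psmb9 points of the Cxcl9-high class lie above all points of the T-zone class, while Tapbp is high in adventitial-like cells.

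After each cell was thinned to 1000 UMIs, a Tap1 UMI was expected in 19.2%, 19.4%, 11.8% and 18.9% of Cxcl9-high cells and in 8.07%, 8.14%, 5.20% and 6.95% of T-zone cells. Unthinned, the shares were 42.3%, 50.7%, 53.8% and 75.5% against 18.9%, 24.8%, 33.5% and 47.8%. In epithelial-gated cells, which were few (15 to 53 per library), the thinned share for Tap1 was 1.19% to 3.95%. An H2-K1 UMI remained in 81.6% to 92.7% of thinned Cxcl9-high cells and in 76.5% to 86.3% of thinned T-zone cells. Both classes thus had an H2-K1 UMI in most thinned cells. For Tap1 the share in Cxcl9-high cells was over 2 times that in T-zone cells in each library. The H2-K1 share in T-zone cells was too high to double, so these shares cannot compare the class differences of the 2 genes.

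Partner genes of the pathway moved with the members in part. The third inducible catalytic subunit Psmb10 was at 265, 214, 199 and 264 CPM in Cxcl9-high cells against 173, 108, 124 and 155 CPM in T-zone cells, a log2 difference of 0.76 (edgeR, adjusted p = 6.12e-06). The proteasome activator subunits Psme1 and Psme2 were higher by 0.60 and 0.94, so 3 of 3 genes of the inducible proteasome and activator list were called higher. The constitutive counterparts Psmb5, Psmb6 and Psmb7 gave 0 of 3 calls with a median log2 difference of 0.10. In the loading and folding list 2 of 5 were called higher, the peptide trimming enzyme Erap1 (0.40) and the tapasin relative Tapbpl (0.82), while the general chaperones Calr, Canx and Pdia3 were not called. DESeq2 called Calr and Pdia3 higher as well, at 0.24 and 0.23. The Erap1 call was lost in 3 of 13 alternatives, among them without control 2 (0.39), and that of Tapbpl in 1.

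Other class I heavy chains were called higher for 4 of 6 genes: H2-T23, the Qa-1 molecule, by 0.88, H2-Q4 by 0.50, H2-T22 by 0.47 and H2-Q6 by 0.41. The H2-Q6 call was lost in 7 of the 13 alternatives run, that of H2-T22 in 3, among them without control 2 (0.39), and that of H2-Q4 in 2, among them without Notch2 cKO 2 (0.46). The Q and T genes are near-identical families, so reads may be split between members. Upstream regulators were called higher for 4 of 13 genes, among them the transcription factor Irf1 by 1.03. The interferon response list was higher for 9 of 9 genes with a median of 2.44, but this list holds Cxcl9, which set the gate. Leukocyte transcripts did not pass in 4 of 4 tested genes. The summed CPM of the 9 leukocyte genes was 15.8, 13.8, 10.6 and 19.0 in Cxcl9-high cells and 8.55, 10.9, 11.9 and 14.7 in T-zone cells, and its part in the result was not tested. With cells that held any leukocyte marker UMI left out, 6 members were called higher, but the cells kept could hold other leukocyte RNA.

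**Figure D3:**
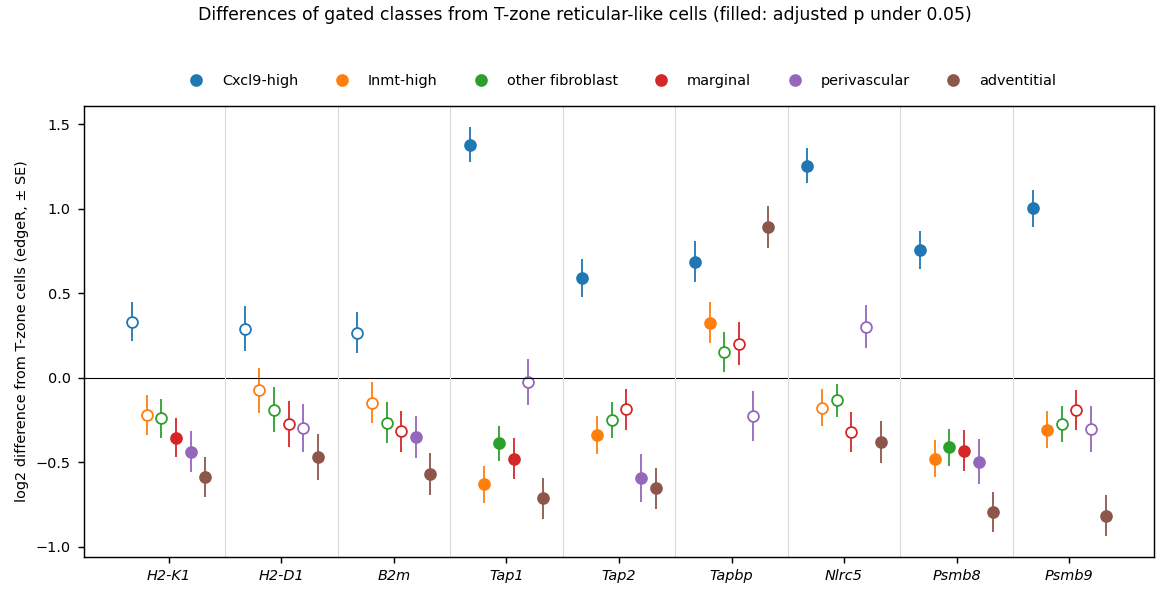
Fitted log2 difference of each class from T-zone reticular-like cells, with SE bars, for the 9 members. Filled points passed the adjusted threshold of 0.05. Cxcl9-high points lie above 0 for every member, and adventitial-like points lie below 0 for every member except Tapbp.

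Fibroblast-like cells were also split into 5 bins by their Cxcl9 share. From cells with no Cxcl9 UMI to the bin with the highest share, Tap1 went from 69.2 to 259.5 CPM in control 1, from 76.4 to 273 in Notch2 cKO 1, from 37.0 to 173 in control 2 and from 55.5 to 289 in Notch2 cKO 2. Tap1 and Psmb9 were higher in each successive bin in 4 of 4 libraries, bins under the gate's threshold included. H2-D1, B2m, Nlrc5 and Psmb8 were so in 3 of 4 libraries and H2-K1, Tap2 and Tapbp in 2 of 4. Between the lowest and the highest bin the ratio was 3.57 to 5.21 for Tap1, 2.33 to 3.18 for Psmb9, 2.25 to 2.80 for Psmb8 and 1.59 to 4.08 for Nlrc5. For H2-K1 it was 1.30 to 1.67, for H2-D1 1.28 to 1.49 and for B2m 1.19 to 1.69. Tap2 and Tapbp had ratios of 1.54 to 2.26 and 1.24 to 2.09. The constitutive subunits stayed flatter, at 1.06 to 1.33 for Psmb5, 1.12 to 1.35 for Psmb6 and 0.870 to 1.29 for Psmb7, and the actin gene Actb was at 1.07 to 1.21. Bins are ranges of a share and hold cells of all fibroblast classes, cells with no Cxcl9 UMI were shallower than the others in each library, and no test was run on them.

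**Figure D4:**
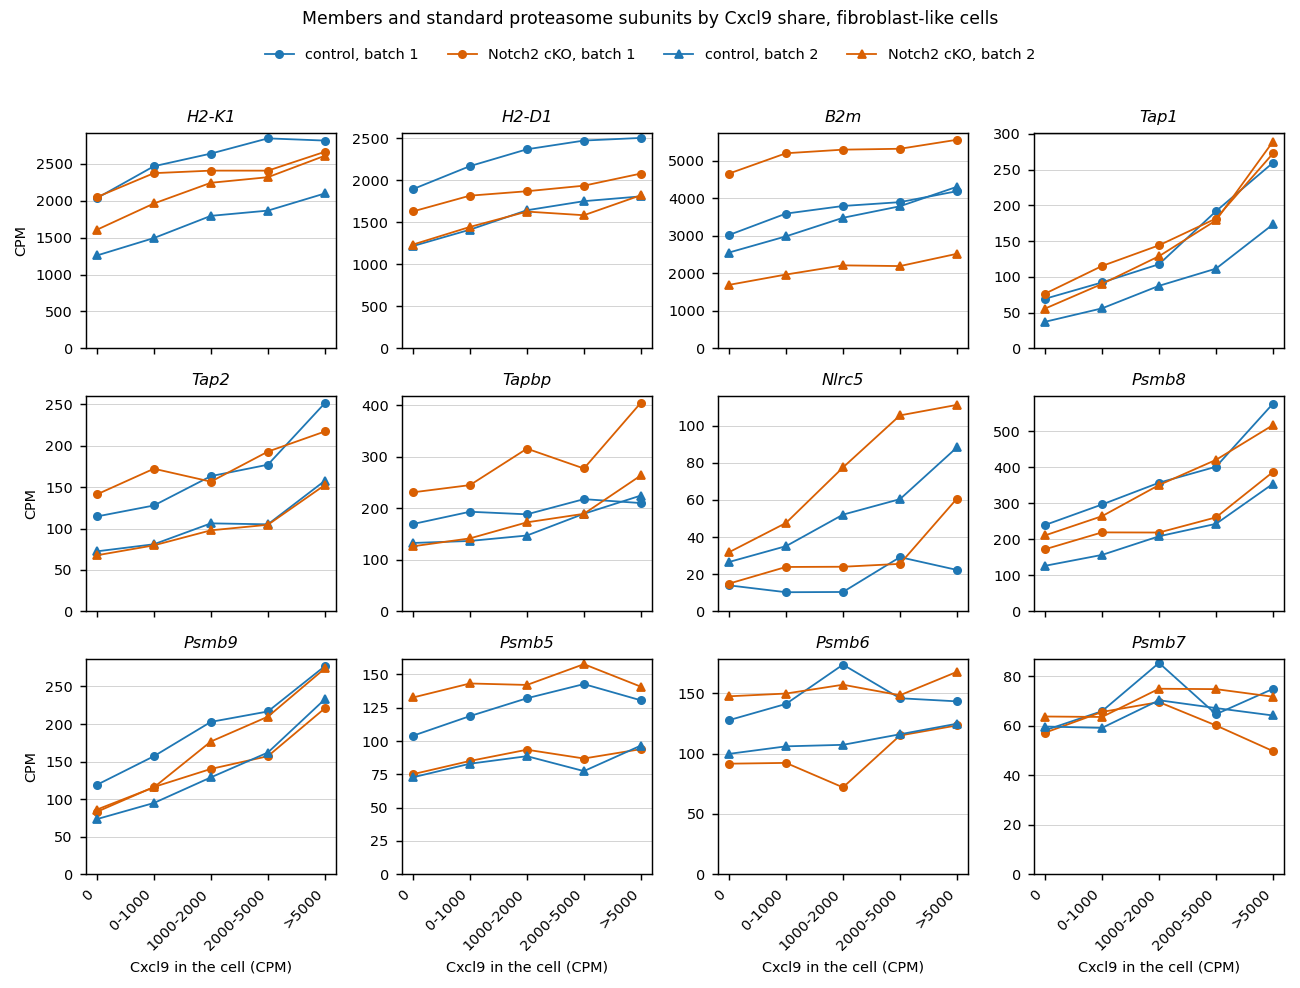
CPM of the 9 members and 3 constitutive proteasome subunits in fibroblast-like cells binned by the cell's Cxcl9 CPM, 1 line per library, y axes from 0. Tap1 and Psmb9 climb in each library from bin to bin, whereas Psmb5, Psmb6 and Psmb7 change little.

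The balance between inducible and constitutive subunits differed by class. The ratio of Psmb9 to Psmb6 UMIs was 1.65, 1.52, 1.61 and 1.54 in Cxcl9-high cells and 0.957, 0.967, 0.853 and 0.690 in T-zone cells. The ratio of Psmb8 to Psmb5 was 3.43, 3.51, 3.42 and 2.91 against 2.46, 2.28, 1.98 and 1.78. Both ratios were higher in Cxcl9-high cells in every library with no overlap between the classes. Tap1 was counted less often than Tap2 in T-zone cells in all 4 libraries, with ratios of 0.670, 0.597, 0.630 and 0.967, and more often in Cxcl9-high cells, with ratios of 1.05, 1.07, 1.05 and 1.81.

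Adventitial-like cells, the fibroblasts around larger vessels and the capsule, had lower levels of 8 of the 9 members than T-zone cells. Psmb9 was at 64.8, 60.3, 50.6 and 72.4 CPM there, below every T-zone library. Its log2 difference from T-zone cells was -0.82 ± 0.12 (edgeR, adjusted p = 2.79e-06). H2-K1 was at 1594, 1699, 939.8 and 1389 CPM, a log2 difference of -0.59 ± 0.12 (edgeR, adjusted p = 1.62e-04). In total 8 of the 9 members were called lower, against 20.4% of all genes called lower and 40.1% called in either direction, and all 8 were lower in 4 of 4 libraries. The other differences ran from -0.79 for Psmb8 to -0.38 for Nlrc5. The call of Nlrc5 was lost in 4 alternatives, among them leaving out Notch2 cKO 1 (-0.35, adjusted p = 0.0566), and that of H2-D1 was lost without control 2 (-0.42, adjusted p = 0.0864), both by edgeR. In control 1 the Nlrc5 value rested on 3 UMIs.

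Tapbp went the other way in the same cells. It was at 318, 505, 207 and 202 CPM in adventitial-like cells against 148, 210, 114 and 124 CPM in T-zone cells. Each library's adventitial-like value was 1.63 to 2.41 times its T-zone value, although the ranges of the classes touched across batches. The log2 difference was 0.89 ± 0.12 (edgeR, adjusted p = 1.10e-06), and it passed in all 13 alternatives run, at 0.67 to 1.13. For comparison 19.7% of all genes were called higher. Tapbp was above its T-zone value in 4 of 4 libraries in each other fibroblast class as well. In marginal and other fibroblast-like cells the ratios were 1.00 to 1.49 and 1.09 to 1.30, and neither difference was called. Other class I heavy chains were called lower for 4 of 6 genes in adventitial-like cells and higher for 1, H2-T22 (0.28). Class II genes were lower for 5 of 5 and constitutive proteasome subunits for 2 of 3. The interferon response list was called higher for 5 of 9 genes and lower for 0, with a median of 0.65.

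The other fibroblast classes lay between these ends. Inmt-high cells, gated on Inmt with Ccl21a under 7000 CPM, had 4 of 9 members called lower than T-zone cells (Tap1 by -0.63, Psmb8 by -0.48, Tap2 by -0.34 and Psmb9 by -0.31) against 16.4% of all genes. Tapbp was called higher there by 0.32, against 16.6% of all genes and 33% called in either direction. Of these 5 calls, those of Tap2, Psmb9 and Tapbp were each lost without control 1, without control 2 or without Notch2 cKO 2, where the Tap2 differences were -0.33, -0.27 and -0.29, those of Psmb9 -0.33, -0.26 and -0.23, and those of Tapbp 0.24, 0.33 and 0.36.

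In marginal reticular-like cells, which line the subcapsular sinus and express Tnfsf11 and Cxcl13, 3 members were called lower (Tap1 by -0.48, Psmb8 by -0.43 and H2-K1 by -0.35), against 11.9% of all genes lower and 21.9% in either direction. Marginal cells numbered 98 and 101 in the batch 1 libraries and 1310 and 1113 in batch 2. Without Notch2 cKO 2 no member was called in this class (Tap1 -0.30, Psmb8 -0.40, H2-K1 -0.28). Without control 2 only Tap1 of the 3 was still called among them, with Psmb8 at -0.43 and H2-K1 at -0.31, and without control 1 H2-K1 was not (-0.35). Without Notch2 cKO 1, 5 members were called lower.

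Other fibroblast-like cells, which met no narrower gate, had Psmb8 (-0.41) and Tap1 (-0.39) called lower, against 12.1% of all genes lower and 24.4% in either direction. Without control 2 neither was called (-0.32 and -0.31), without Notch2 cKO 2 Psmb8 was not (-0.34), without control 1 Tap1 was not (-0.35), and without Notch2 cKO 1, 5 members were.

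Perivascular-like cells are mural cells of the vessel wall, with 2215 to 4913 CPM of Rgs5 and at most 152 CPM of Dcn, both used in the gate. They numbered 25 and 24 in batch 1 and 968 and 641 in batch 2, so batch 1 values rest on few UMIs (8, 2, 244 and 171 for Tap2). In batch 2, control then Notch2 cKO, H2-K1 was at 1337 and 1721 CPM and Tap1 at 60.8 and 83.2 CPM. By edgeR with TMM scaling 4 members were called lower than in T-zone cells (Tap2 by -0.59, Psmb8 by -0.50, H2-K1 by -0.44 and B2m by -0.35), against 22.7% of all genes lower and 41.5% in either direction. These directions depend on the scaling: with library sizes alone 0 were lower, Nlrc5 was called higher by 0.52, and H2-D1 (0.08), B2m (0.05), Tap1 (0.22) and Tapbp (0.05) changed sign. The TMM factors of this class were 1.05 to 1.49 while those of T-zone cells were 0.906 to 0.990. Without control 2, only 1 member was called lower in this class.

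When the 7 classes were ordered by their fitted level, Cxcl9-high cells came first for 8 of 9 members and adventitial-like cells last for 8 of 9. Of the 8 steps down to adventitial-like cells 1 passed. For Tapbp adventitial-like cells came first and, with TMM scaling, perivascular-like cells last, but with library sizes alone the latter lay above T-zone cells, as given above. Of the 54 comparisons between neighbours in these orders, 9 passed (edgeR, adjusted over all genes in each comparison). In 6 of the 9 the Cxcl9-high class was the higher of the pair. The remaining steps that passed were Tap1 in perivascular-like over other fibroblast-like cells (0.36), Psmb8 in T-zone over other fibroblast-like cells (0.41) and Psmb9 in Inmt-high over adventitial-like cells (0.51). The other neighbours, including all steps for H2-K1, H2-D1 and B2m, did not pass the adjusted threshold, which does not show that they are alike: Cxcl9-high over T-zone was positive in 4 of 4 libraries for these 3 genes, as given above. For pairs that do not include T-zone cells, the share of all genes called in either direction was 32.4% for Cxcl9-high against Inmt-high, 38.6% against perivascular-like and 37.2% against adventitial-like cells. For adventitial-like cells it was 28.6% against Inmt-high, 34.7% against marginal and 40.8% against perivascular-like cells. Perivascular-like cells gave 34.6%, 35.4% and 35.1% against marginal, Inmt-high and other fibroblast-like cells. It was 8.8% between Inmt-high and other fibroblast-like, 10.5% between marginal and other fibroblast-like and 11.7% between marginal and Inmt-high cells.

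Across the 28 sums of 7 classes in 4 libraries, each member was correlated with the mean profile of the 9, after centring log2 CPM within libraries. Tap1 (Pearson's r = 0.963), Psmb9 (0.962) and Psmb8 (0.954) followed that profile most closely, although each is part of it. H2-K1, B2m, Nlrc5 and H2-D1 were at 0.914, 0.878, 0.852 and 0.846, Tap2 at 0.619 and Tapbp at 0.0236. Among pairs, H2-K1 and B2m had r = 0.952, while Tap1 and Tap2, the partners in one transporter, had r = 0.554. The 28 sums counted equally, those of 25 and 24 perivascular-like cells in control 1 and Notch2 cKO 1 included. There the ratio of Tap1 to Tap2 UMIs was 0.5 and 3, on few UMIs. How far the values of r for Tap2 and Tapbp depend on these sums was not tested. Of the 6704 genes ranked, those most alike outside the list included Psmb10 (0.942), Cxcl9 (0.914), the GTPase genes Ifi47 (0.910), Gbp6 (0.907), Gbp8 (0.878) and Iigp1 (0.869), and the translation factor Eif5a (0.893). Sums of one library share depth and free RNA and classes are ordered by gates that include Cxcl9, so these are descriptions.

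Loss of Notch2 was not accompanied by a called change in any of the 9 members. In fibroblast-like cells as a whole the edgeR quasi-likelihood test with a batch term called 0 of 9, against 2.33% of the 17449 genes tested. At an unadjusted p under 0.05 it was 0 of 9 members and 2012 of the 17449 genes. DESeq2 also called 0 of 9. Notch2 itself was not called by edgeR in this fit, nor in Cxcl9-high cells, and was called in T-zone cells. A missing call in this fit therefore does not show that a gene was unchanged. Fitted log2 differences, Notch2 cKO minus control, were 0.26 ± 0.19 for Tap1, 0.26 ± 0.19 for Nlrc5, 0.16 ± 0.22 for Tapbp, 0.10 ± 0.33 for H2-K1, 0.03 ± 0.29 for Psmb8 and 0.02 ± 0.20 for Tap2 (SE). They were -0.08 ± 0.45 for B2m, -0.18 ± 0.32 for H2-D1 and -0.21 ± 0.22 for Psmb9. The median over the members was 0.03 and over all genes 0.02. The lowest adjusted p by edgeR was 0.767. The errors of H2-K1, H2-D1 and B2m, 0.32 to 0.45, were as large as or larger than the Cxcl9-high differences of these genes, 0.27 to 0.33.

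The same held inside each gated class. No member was called by edgeR in T-zone cells (7.92% of all genes called), Cxcl9-high cells (3.6%), other fibroblast-like cells (1.78%), marginal (1.51%), Inmt-high (0.909%), adventitial-like (0.414%) or perivascular-like cells (0.0196%). Over the 72 tests of members 1 had an unadjusted p under 0.05, and the lowest adjusted p was 0.322. Among all genes that number ran from 272 of 10212 in perivascular-like to 2531 of 15258 in T-zone cells. The genotype difference in a class minus that in T-zone cells was called for 0 of 9 members in each of 6 classes (0 of 54 tests at an unadjusted p under 0.05, lowest adjusted p = 0.676 by edgeR). Of 14534 genes, 510 to 1433 had such an unadjusted p in these 6 tests. Genes called there made up 0.0413% for Cxcl9-high, 0.454% for marginal, 0.984% for other fibroblast-like, 1.23% for Inmt-high, 1.53% for adventitial-like and 1.73% for perivascular-like cells.

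The batches pulled several members in opposite directions. On TMM-scaled CPM in fibroblast-like cells, B2m was higher in Notch2 cKO by 0.58 on the log2 scale in batch 1 and lower by -0.73 in batch 2. Psmb8 was lower by -0.54 in batch 1 and higher by 0.60 in batch 2. Tapbp (0.45 and -0.13), Psmb9 (-0.55 and 0.12), Tap2 (0.24 and -0.20) and H2-K1 (-0.04 and 0.24) also had opposite signs, so 6 of 9 members did. Tap1 (0.07 and 0.45) and Nlrc5 (0.31 and 0.21) had positive differences in each batch and H2-D1 (-0.25 and -0.10) negative ones.

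For B2m, Tapbp and Psmb8 the opposite signs recurred in most classes. B2m was higher in Notch2 cKO in 7 of 7 classes in batch 1 (0.42 to 0.70) and lower in 7 of 7 in batch 2 (-0.98 to -0.42). Psmb8 was lower in the 6 fibroblast classes of batch 1 (-0.60 to -0.12) and higher in 7 of 7 in batch 2 (0.39 to 0.87). Tapbp was higher in 7 of 7 in batch 1 and in 0 of 7 in batch 2. The other 3 were mixed in one batch: H2-K1 and Tap2 were higher in 4 of 7 classes in batch 1, and Psmb9 in 4 of 7 in batch 2. The constitutive subunits Psmb5 (-0.50 and 0.73) and Psmb6 (-0.52 and 0.44) showed the same signs in fibroblast-like cells as Psmb8. A pattern shared by all classes of a library cannot be told apart from a property of that library, since each group has 1 library per batch.

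**Figure D5:**
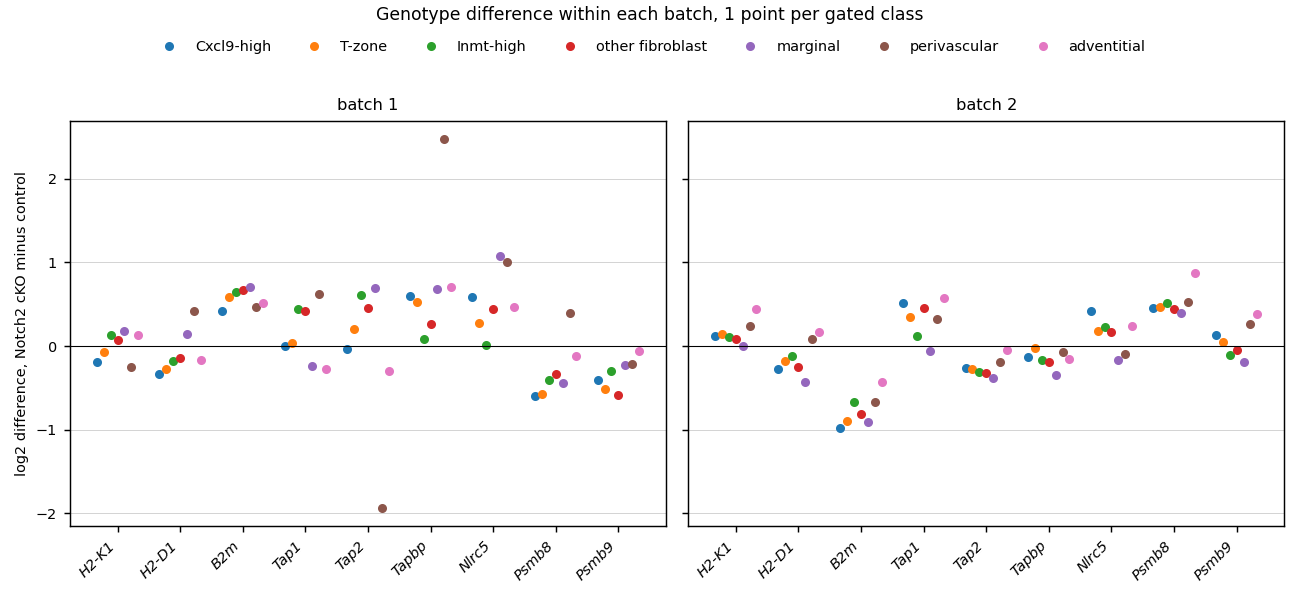
Difference of log2 TMM-scaled CPM (prior count of 2), Notch2 cKO minus control, within batch 1 and batch 2 for the 9 members, with 1 point per gated class. B2m points lie above 0 in batch 1 and below 0 in batch 2. The extreme Tap2 and Tapbp points of batch 1 are perivascular-like cells, which numbered 25 and 24.

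For the heavy chains the ratio was also computed. H2-K1 UMIs per H2-D1 UMI in fibroblast-like cells were 1.09, 1.27, 1.05 and 1.33, higher in the Notch2 cKO library of each batch. In T-zone cells the ratio was 1.11, 1.28, 1.09 and 1.35 and in Cxcl9-high cells 1.14, 1.26, 1.11 and 1.46. Both Notch2 cKO libraries lay above both control libraries in these 3 sums. In perivascular-like cells of batch 1, with few UMIs, the order was the reverse (1.63 and 1.03). The ratio was picked after its values were seen, and no test was run on it.

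Other antigen presentation genes did differ between genotypes in these sums. Among class II genes, Cd74, the invariant chain, was at 345, 1068, 228 and 854 CPM in fibroblast-like cells, and H2-Aa was at 63.1, 221, 33.0 and 119 CPM. Both Notch2 cKO libraries lay above both controls for each gene. The log2 differences were 1.72 ± 0.27 and 1.78 ± 0.19 (edgeR, adjusted p = 0.0125 and 0.00304). All 5 class II genes had a positive difference there and 4 of 5 were called higher, and in T-zone cells 5 of 5 were called higher. Without the batch term the differences of Cd74 and H2-Aa were 1.71 and 1.79 with adjusted p of 1.000 by edgeR. The Cd74 call was lost in 6 of 11 alternatives and the H2-Aa call in 5. Among these were the fit without the batch term and each fit with 1 library left out, where that term is also dropped. Summed leukocyte transcripts in fibroblast-like cells were 8.54, 10.4, 11.2 and 14.3 CPM, higher in the Notch2 cKO library of each batch. Lyz2, a myeloid gene, rose in T-zone cells by 1.58 (edgeR, adjusted p = 0.0162). Its part in the class II difference was not tested.

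Among the other class I heavy chains, H2-M3, which presents formylated peptides, was at 90.3, 50.1, 73.3 and 55.6 CPM in T-zone cells. Both controls lay above both Notch2 cKO libraries. It fell by 0.68 on the log2 scale in T-zone cells (edgeR, adjusted p = 0.0322) and by 0.96 in Cxcl9-high cells (edgeR, adjusted p = 0.0398). The T-zone call was lost in 9 of 12 alternatives, library-size scaling (edgeR, adjusted p = 0.125) and each library left out among them, and the Cxcl9-high call in 8 of 12, with DESeq2 (adjusted p = 0.0702) and each library left out among them. H2-T23 was at 196, 126, 118 and 83.8 CPM in T-zone cells, lower in the Notch2 cKO library of each batch, and was not called. In all, 1 of 6 genes of this list was called in T-zone cells. The loading and folding, inducible proteasome, constitutive proteasome and regulator lists had 0 genes called in fibroblast-like cells or in T-zone cells. In the interferon response list, Isg15, a ubiquitin-like antiviral gene, was at 52.3, 21.4, 40.0 and 20.7 CPM in T-zone cells. It was lower in both Notch2 cKO libraries and fell by 1.18 on the log2 scale (edgeR, adjusted p = 1.13e-04), the only call among 9 genes of that list there. The Isg15 call was lost in 5 of 12 alternatives, without the batch term and with each library left out, at -1.44 to -0.97.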

How the data were processed

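Live CD45-negative CD31-negative lymph node cells were profiled in 4 libraries with the 10x Chromium 3′ kit v3.1, per the labels' protocols. The authors deposited raw UMI counts for every gene in every barcode. Cell Ranger 5.0.1 wrote the batch 1 matrices, and for batch 2 version 7.1.0 stands in the file headers although the submitters' processing notes give 5.0.1 throughout, with mm10. The sources used here do not say if intronic reads were included, which could shift counts between batches. One title (control 2) names Ccl19-Cre, but its genotype label does not, and the genotype label was followed.

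Kept cells had 500 or more genes, 1000 or more UMIs and a mitochondrial share of up to 10%. Each cell was assigned by marker genes, without clustering. Leukocyte, epithelial and endothelial gates needed 2 markers and the Schwann gate 3, and cells with markers of 2 lineages, or of 1 such lineage and at least 4 fibroblast markers, were left out as likely doublets. No doublet caller was run. Perivascular-like cells had at least 2000 CPM of mural genes and under 500 CPM of Pdgfra, Dcn, Lum and Pdpn together. Fibroblast-like cells had at least 3 of 8 markers and 1000 CPM of those 4. They were then divided in order: follicular dendritic-like, adventitial-like (3 of 6 markers), marginal (Tnfsf11 and 1000 CPM of Cxcl13), Cxcl9-high (2000 CPM), Inmt-high (1000 CPM, Ccl21a under 7000) and T-zone (Ccl21a of 7000 CPM or more). These thresholds were set after marker counts were seen. Between 177 and 335 Cxcl9-positive cells per library lay within a factor of 2 above the Cxcl9 threshold.

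UMIs were added up for each class of each library, and CPM scale a gene's UMIs to the total of that sum. edgeR 4.0.16 (R 4.3.3; filterByExpr, TMM, quasi-likelihood test, Benjamini-Hochberg over all genes, threshold 0.05) compared genotypes with a batch term, classes with the library as a block, and class by genotype terms. The batch term pairs libraries prepared in one labelled batch: deviations of same-batch libraries from their group means correlated at 0.813 in fibroblast-like cells. In the genotype fits only 1 residual degree of freedom per gene describes how the genotype difference varies between the batches. edgeR moderates each gene's variance towards a value shared across genes, so these p-values rest largely on that shared value. Each SE is the absolute log2 difference divided by the square root of the F statistic. In fits over classes the library block takes out the level of each pool. Their p-values rest on how class differences vary between libraries, over all classes together, and not on the spread between mice. The scripts were tested on simulated data. DESeq2 1.42.0, no TMM, no filter, no batch term, stricter cells and gates, removal of cells with leukocyte UMIs or most UMIs and leaving out each library were alternatives. Named genes were the 9 members, fixed pathway lists and the 8 genes most like the members' mean profile among those of at least 20 CPM, of which 1 is not reported here. Members and lists were chosen with earlier results of these data known.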

Additional observations from a re-analysis of the deposited data

Results flagged for a closer look

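No class I member was called for a genotype effect that differed between classes, but 2 other listed genes were, by edgeR class by genotype terms. For Isg15, the genotype difference in adventitial-like cells exceeded that in T-zone cells by 1.56 on the log2 scale (adjusted p = 4.15e-04). The Isg15 difference in perivascular-like cells exceeded the T-zone one by 0.98 (adjusted p = 0.0382). For Cd74, the perivascular-like difference was lower than the T-zone one by -1.93 (adjusted p = 0.0450), with Cd74 listed at 192, 0, 33.8 and 39.2 CPM in perivascular-like cells, of which batch 1 held 25 and 24.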

How the results depend on the processing

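Over the counts of called genes and members recomputed under the alternatives, 417 stayed within 1.5 times and 114 did not, and among single genes 1136 values kept direction and call, 173 lost and 49 gained a call and 51 changed sign. The cause of these changes was not tested. In Cxcl9-high cells 6 or 7 members were called higher than in T-zone cells in each alternative except batch 1 alone, which called 4, and no alternative called a member between genotypes.

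For class differences from T-zone cells, batch 1 alone called 190 genes in Cxcl9-high cells (683 in the reported fit), 2142 in Inmt-high (4602), 3147 in adventitial-like (5586), 575 in marginal (3048), 1238 in other fibroblast-like (3404) and 584 in perivascular-like cells (5776). Batch 2 alone called 270 in Cxcl9-high cells, and no filter on low counts called 1064. Leaving out 1 library gave 312 to 510 genes in Cxcl9-high, 2980 to 4187 in Inmt-high, 3701 to 5203 in adventitial-like, 1746 to 2726 in marginal, 1374 to 3285 in other fibroblast-like and 3739 to 5700 in perivascular-like cells. Members called lower with 1 library left out were 2 to 5 in Inmt-high, 0 to 5 in marginal, 0 to 5 in other fibroblast-like and 1 to 5 in perivascular-like cells, and members called higher were 0 to 1 in Inmt-high and in perivascular-like cells. Batch 1 alone called 1 member lower in Inmt-high and 0 in marginal, other fibroblast-like and perivascular-like cells. Batch 2 alone called 5 lower in marginal and 7 in other fibroblast-like cells, and the stricter cell filter 5 in marginal cells. Tapbp in Inmt-high cells, the 1 member called higher there, gave 0 calls with no filter on low counts, the stricter cell filter, the cells with most UMIs removed and batch 1 alone. In perivascular-like cells library-size scaling called 0 lower and 1 higher, and 1 was higher without the cells with most UMIs and in batch 2 alone.

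Signs changed with library-size scaling in perivascular-like cells for H2-D1 (0.081), B2m (0.055), Tap1 (0.22) and Tapbp (0.046). There Tap1 was also 0.014 without the cells with most UMIs, 0.024 in batch 1 alone and -0.085 to 0.026 with 1 library left out. Batch 1 alone turned Tap2 in marginal cells (0.033) and H2-D1 in Inmt-high (0.052) and other fibroblast-like cells (0.0012), and no filter turned Canx in Cxcl9-high cells (-0.014).

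For genotype, the fit without the batch term (no replicate block) called 0 genes in all fibroblast-like, T-zone, Cxcl9-high, Inmt-high, adventitial-like, marginal and other fibroblast-like cells and 1 in perivascular-like cells, and turned B2m (0.13) and Psmb8 (-0.047) in all fibroblast-like cells and B2m (0.037) and Tap2 (0.029) in T-zone cells. Fits with 1 library left out also drop that term and assume that the lone library varies like the others. They called 0 to 15 genes in all fibroblast-like, 0 to 21 in marginal, 2 to 28 in perivascular-like and 0 to 0 in the other classes. In them the 9 members ranged, in all fibroblast-like cells, over -0.33 to 0.51 (H2-K1), -0.56 to 0.21 (H2-D1), -0.87 to 0.68 (B2m), -0.24 to 0.75 (Tap1), -0.62 to 0.53 (Tap2), -0.36 to 0.61 (Tapbp), -0.37 to 0.81 (Nlrc5), -0.53 to 0.54 (Psmb8) and -0.66 to 0.17 (Psmb9). In T-zone cells they ranged over -0.28 to 0.31 (H2-K1), -0.52 to 0.043 (H2-D1), -0.89 to 0.56 (B2m), -0.22 to 0.57 (Tap1), -0.61 to 0.43 (Tap2), -0.20 to 0.65 (Tapbp), -0.36 to 0.75 (Nlrc5), -0.49 to 0.35 (Psmb8) and -0.56 to 0.038 (Psmb9).

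DESeq2 called 1225 genes in all fibroblast-like (406 by edgeR), 271 in Cxcl9-high (407), 3 in adventitial-like (45), 80 in marginal (190), 832 in other fibroblast-like (261) and 26 in perivascular-like cells (2). Library-size scaling called 793 in T-zone (1208), 197 in Inmt-high (113), 944 in other fibroblast-like and 1 in perivascular-like cells, and turned Tap2 (0.018) and Psmb8 (0.0087) in T-zone cells. No filter called 840 in all fibroblast-like, 271 in Inmt-high, 957 in other fibroblast-like and 12 in perivascular-like cells. The stricter cell filter called 96 in all fibroblast-like, 557 in T-zone and 477 in other fibroblast-like cells, with Tap2 at -0.012 in all fibroblast-like cells. Removing the cells with most UMIs called 660 in T-zone, 187 in Inmt-high, 417 in other fibroblast-like and 0 in perivascular-like cells. The stricter gate called 613 in T-zone, 271 in Cxcl9-high, 69 in Inmt-high, 16 in adventitial-like and 488 in other fibroblast-like cells. Removing cells with a leukocyte UMI called 133 in all fibroblast-like, 229 in Cxcl9-high, 65 in Inmt-high, 511 in other fibroblast-like and 1 in perivascular-like cells. The stricter gate gave no value for marginal and perivascular-like cells and the stricter cell filter none for perivascular-like cells, with under 20 cells in a library. With 2 pools of mice per genotype and 24 to 101 marginal or perivascular-like cells in batch 1 libraries, small genotype differences of the members were not detectable here.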

Other observations

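Cells outside the stromal classes gave class I values that entered no comparison. Leukocyte-gated cells, 29, 45, 303 and 238 per library, had Psmb8 at 458, 494, 293 and 499.8 CPM, above the Cxcl9-high value of the same library in 3 of 4 libraries (control 1 was below), and Tap1 at 59.1, 52.0, 58.3 and 90.1 CPM, below the Cxcl9-high value in each. Schwann-like cells were present in batch 2 only, 70 and 56 cells, with H2-K1 at 819 and 728 CPM, below the fibroblast-like cells of their libraries, and B2m at 2128 and 1181 CPM. Epithelial-gated cells, 15 to 53 per library, had the lowest B2m of the gates with cells in all libraries, at 712, 2018, 518 and 424 CPM. Follicular dendritic-like cells, 38 and 11 in batch 2, had Tap1 at 60.0 and 76.9 CPM.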
